A study of Rattus norvegicus with 4 samples.

Results

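Integrins, laminins and the proteins that join them were followed as 1 group of genes in ribosome footprint libraries from neonatal rat heart muscle cells. The genes were taken by symbol: every Itga or Itgb symbol followed by a digit or v, every Lama, Lamb or Lamc chain, and 14 further names of basement membrane and focal adhesion proteins. The 45 genes described, of 22250 in the count tables, are 21 receptors, 12 ligands, 9 intracellular adaptors and 3 integrin-binding proteins whose symbols also start with Itgb. The listed symbol Hspg2 (perlecan) was not matched, but RefSeq gives the row AABR07073181.1 as an older name of that gene, and its values are given separately.

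Cpeb4 encodes a cytoplasmic protein that binds mRNA and regulates poly(A) tails and translation, and the study asked what its knockdown changes in isolated cardiac myocytes. There were 2 libraries from cells given CPEB4 siRNA and 2 from cells given Control siRNA, each for 72 h. All cells were ventricular cardiomyocytes of Wistar rats aged 1 to 2 days, separated on a Percoll gradient after trypsin. The growth protocol of every sample also names the mTOR inhibitor Torin1 (250 nM, 24 h) without saying whether these cells received it. The labels do not state whether replicates are separate cultures, and the p-values therefore reflect only how these libraries vary, which may be technical.

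Gene counts summed to between 3554011 and 5910911 per library, and the adhesion genes took 1.56% to 1.62% of them. Cpeb4 itself had 40 and 59 counts after CPEB4 siRNA, against 351 and 253 counts in controls (edgeR adjusted p = 1.57e-09). Summed over 11 cardiomyocyte markers, levels were 72650 and 64150 CPM (counts scaled to the library total) after CPEB4 siRNA, and 66020 and 70210 CPM in controls, so the labelled cell type was borne out in all 4 libraries. Markers of fibroblasts, leukocytes and mesothelium were also present, and the libraries are therefore not from myocytes alone. Fewer cells of a type and fewer footprints per cell cannot be told apart in such bulk samples.

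Integrins are pairs of an alpha and a beta subunit that span the membrane. The alpha subunit largely sets which matrix protein is bound, and the beta tail recruits talin, kindlin and the kinase complexes that tie the receptor to actin. Laminins are trimers of an alpha, a beta and a gamma chain that polymerise into the basement membrane, where nidogens, perlecan and collagen IV join them. In heart muscle, the laminin receptors dystroglycan and integrin alpha-7 beta-1 hold the sarcolemma to this sheet and carry force across it.

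Of the 45 genes, 40 had enough counts to be tested, 4 passed an adjusted p of 0.05, and 36 did not. The laminin chain gene Lamb3 and the collagen receptor subunit gene Itga1 fell, and the integrin subunit genes Itga7 and Itga9 rose. Genes were tested by edgeR's quasi-likelihood method, and p was adjusted by Benjamini-Hochberg over all 11335 genes tested. Called genes were 4 of 40 tested adhesion genes, or 10%, beside a background of 3.41% of all genes tested. By direction, 2 rose where the background was 1.54%, and 2 fell where it was 1.87%. At an unadjusted p under 0.05 there were 8 of 40, beside a background of 16.1%. Groups did not overlap for 24 of the 40 (14 higher and 10 lower), where the background was 46.0% of all genes, 26.5% being higher and 19.5% lower.

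**Figure D1:**
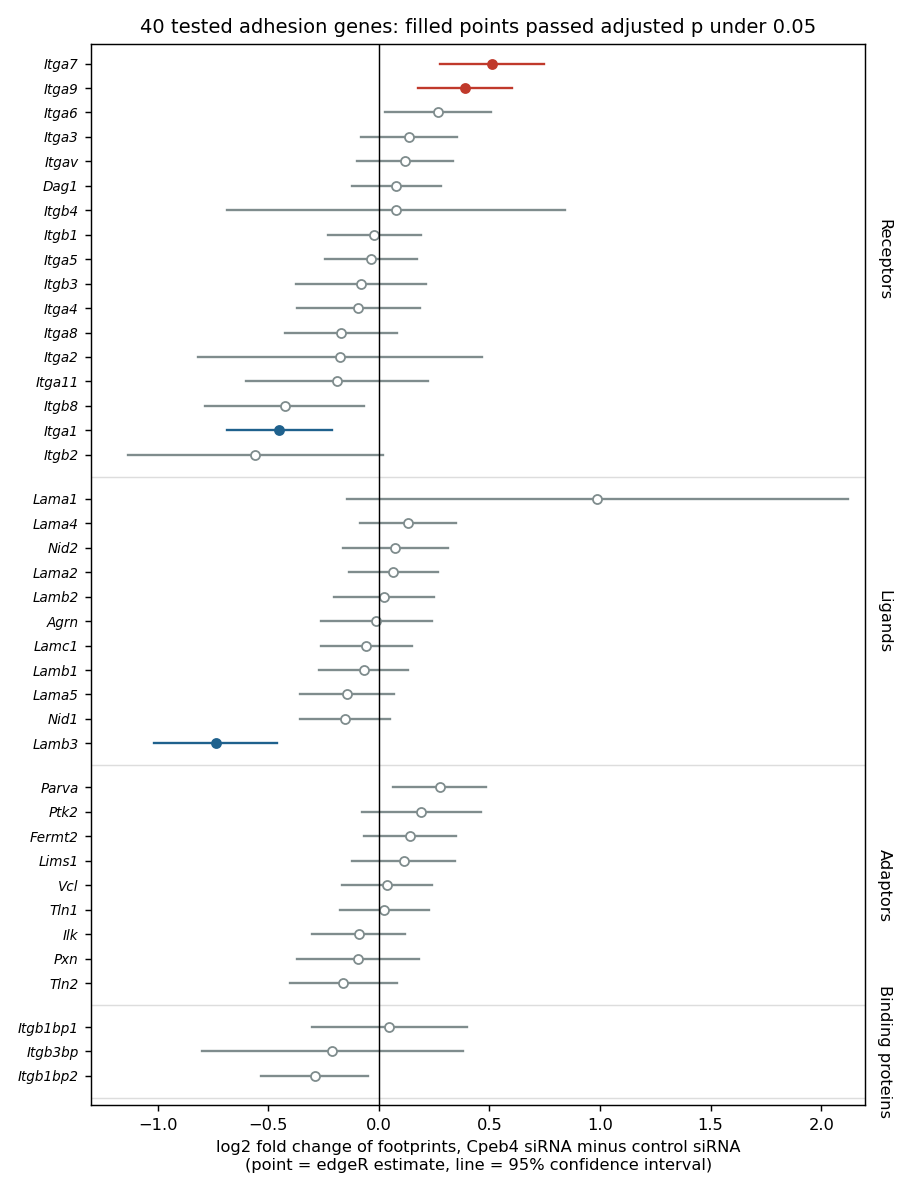
Log2 fold change of footprints (CPEB4 siRNA minus control siRNA, x axis) for the 40 tested adhesion genes (rows, grouped by role), with points for edgeR estimates and lines for 95% confidence intervals. The 4 filled points passed the adjusted p of 0.05: Itga7 and Itga9 lie to the right of 0, and Itga1 and Lamb3 to the left.

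Among the 11 ligands tested 1 was called, and its log2 fold change was the largest of the 4 called genes. This was Lamb3, the beta-3 laminin chain, best known from epithelial basement membranes. It had 44.4 and 55.7 CPM after CPEB4 siRNA, against 88.0 and 75.1 CPM in controls. Both values after CPEB4 siRNA lay below both control values. Its log2 fold change was -0.74 ± 0.13 (SE, n = 2 per group), or 0.600-fold with a 95% interval from 0.495 to 0.727 (edgeR adjusted p = 0.00201). The call held without any single library, the highest edgeR adjusted p being 0.0357.

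None of the chains described next was called in edgeR or DESeq2, but DESeq2 gave no adjusted p for Lama1. Lamc1, the gamma-1 chain shared by most laminins, had 1474 and 1415 CPM after CPEB4 siRNA, against 1529 and 1415 CPM in controls, with overlapping groups. Its log2 fold change of -0.06 had a 95% interval from -0.26 to 0.15. Lamb1 and Lamb2, the beta chains that pair with it, had log2 fold changes of -0.07 and 0.02, with intervals from -0.27 to 0.13 and from -0.20 to 0.25. Lama2, the alpha chain of the muscle laminin, had 1078 and 1130 CPM after CPEB4 siRNA and 1031 and 1035 CPM in controls, a log2 fold change of 0.07 with an interval from -0.14 to 0.27. Lama4 and Lama5, alpha chains of vessels and of many other basement membranes, had log2 fold changes of 0.13 and -0.14, and neither passed (edgeR adjusted p = 0.586 and 0.534). Lama1 was barely detected, with 10 and 16 counts after CPEB4 siRNA against 6 and 5 counts in controls. Its log2 fold change of 0.99 had an interval from -0.14 to 2.12. Lamc3 had no count in any library.

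Per 100 footprints of Lamb1 in the same library, Lamb3 had 4.29 and 5.27 after CPEB4 siRNA, against 8.25 and 6.94 in controls. These ratios are not corrected for gene length and are meaningful only between libraries. Lamb3 was called from these same counts, so they are not a further check of its call. The mean was 4.78 ± 0.69 after CPEB4 siRNA and 7.59 ± 0.92 in controls (SD, n = 2 each), a ratio of 0.63, and the groups did not overlap. With 2 libraries per group, an exact permutation test of a single value such as this cannot give a two-sided p below 0.333.

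Markers of the epicardium, the mesothelial layer of the heart surface, are given beside Lamb3. Summed over 9 such markers, levels were 360.0 and 321 CPM after CPEB4 siRNA, against 390.5 and 408 CPM in controls. None of the 8 tested passed in edgeR or DESeq2, and 1 had an unadjusted edgeR p under 0.05. Their log2 fold changes were negative for 5 and positive for 3, with a median of -0.16. The positive ones were Krt8 (0.01), Tbx18 (0.08) and Upk1b (0.06). Groups did not overlap for 3 (37.5%), all of them lower, beside 46.0% of all genes tested. The mesothelin gene Msln, with the smallest p of the 8, had 186 and 150.2 CPM after CPEB4 siRNA and 216 and 217 CPM in controls (edgeR adjusted p = 0.0658). Most of the difference between the sums lay in Msln. Wt1 had 9.61 and 12.2 CPM after CPEB4 siRNA and 12.6 and 15.5 CPM in controls (edgeR adjusted p = 0.487). For both genes, which are among the 3 with groups apart, the values after CPEB4 siRNA lay below those in controls. Krt19 was near 0, with at most 6 counts in a library. The part of these cells in the Lamb3 values was not tested.

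Promoter sequence was available from RefSeq (GRCr8) for Lamb3, Itga1 and Itga9 among the 4 called genes, and is shown because these are the called genes whose windows can be set side by side. Each window runs from 250 bases before to 50 bases after the annotated start, 5′ to 3′ on the gene's strand. Capitals mark GC boxes (GGGCGG on either strand), which 33.1% of the 33469 rat promoters in the table hold.
Lamb3, chr13:107362303-107362602, plus strand: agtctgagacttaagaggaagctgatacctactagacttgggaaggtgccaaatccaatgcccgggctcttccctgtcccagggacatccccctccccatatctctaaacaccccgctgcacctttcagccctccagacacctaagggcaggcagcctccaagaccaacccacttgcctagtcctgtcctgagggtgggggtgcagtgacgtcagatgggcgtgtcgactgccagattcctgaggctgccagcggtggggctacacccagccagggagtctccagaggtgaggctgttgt
Itga1, chr2:48545234-48545533, minus strand: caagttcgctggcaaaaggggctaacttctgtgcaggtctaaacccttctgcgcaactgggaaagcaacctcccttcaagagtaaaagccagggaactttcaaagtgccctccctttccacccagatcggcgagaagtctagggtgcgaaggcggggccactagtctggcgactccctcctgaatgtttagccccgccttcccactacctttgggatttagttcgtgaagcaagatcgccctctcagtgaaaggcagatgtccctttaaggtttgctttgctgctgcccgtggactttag
Itga9, chr8:127185039-127185338, plus strand: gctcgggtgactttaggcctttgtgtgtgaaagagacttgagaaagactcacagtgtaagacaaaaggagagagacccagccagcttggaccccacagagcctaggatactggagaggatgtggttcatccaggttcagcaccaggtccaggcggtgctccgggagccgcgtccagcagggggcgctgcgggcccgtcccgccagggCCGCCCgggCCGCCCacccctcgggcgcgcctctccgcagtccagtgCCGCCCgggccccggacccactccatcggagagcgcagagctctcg
Itga9 held 3 GC boxes and a GC content of 66.7%, against 59.3% in Lamb3 and 53.7% in Itga1, which held none. No window held the AP-1 motif TGANTCA or the TATA motif TATAAA, found in 7.33% and 14.2% of all promoters. Of 36 adhesion genes with a window, none held TGANTCA and 18 held a GC box. These are letters in a window and not tested sites.

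The nidogens, agrin and perlecan were not called in edgeR or DESeq2, and the 3 matched by symbol had no unadjusted edgeR p under 0.05. The nidogens cross-link laminin to collagen IV. Nid1 had 600.1 and 610 CPM after CPEB4 siRNA, against 638 and 680.1 CPM in controls, a log2 fold change of -0.15 with an interval from -0.36 to 0.05 (edgeR adjusted p = 0.484). Nid2 had 90.8 and 92.4 CPM after CPEB4 siRNA and 82.7 and 88.1 CPM in controls, and its log2 fold change of 0.07 pointed the other way. Agrn encodes agrin, a proteoglycan that binds dystroglycan, and had 70.4 and 71.6 CPM after CPEB4 siRNA, within the control values of 67.2 and 73.4 CPM. The row that RefSeq assigns to perlecan (AABR07073181.1) had 1049 and 967 CPM after CPEB4 siRNA, against 1083 and 1079 CPM in controls, and was not called (log2 fold change -0.13, edgeR adjusted p = 0.571).

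Receptors moved in both directions. Itga7, the alpha subunit of the main laminin-binding integrin of muscle, had 318 and 264 CPM after CPEB4 siRNA, against 194 and 206 CPM in controls. Both treated libraries lay above both controls, although they differed from each other by more than the controls did. The log2 fold change was 0.51 ± 0.11 (SE, n = 2 per group), a 1.43-fold rise with a 95% interval from 1.21 to 1.68 (edgeR adjusted p = 0.0108). The call ended without control replicate 1 (edgeR adjusted p = 0.126) or CPEB4 siRNA replicate 1 (0.0907), where the log2 fold change was 0.46 and 0.36.

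Itga9 pairs with beta-1 and binds tenascin-C and VCAM-1 among other ligands. It had 259 and 255 CPM after CPEB4 siRNA, against 194 and 190.2 CPM in controls, so that replicates lay close together and the groups apart. It rose 1.31-fold, with a log2 fold change of 0.39 ± 0.10 (SE, n = 2 per group; edgeR adjusted p = 0.0372). The estimate hardly moved when a library was left out, from 0.37 to 0.41, but the call ended each time (edgeR adjusted p from 0.0624 to 0.255). DESeq2 ended it too (adjusted p = 0.0553), as did an edgeR fit with replicate number as a block (adjusted p = 0.0508).

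Itga1, the alpha subunit of a collagen receptor that binds collagen IV, had 170.4 and 197 CPM after CPEB4 siRNA, against 269 and 222 CPM in controls. The groups did not overlap and the log2 fold change was -0.45 ± 0.11 (SE, n = 2 per group), or 0.732-fold (edgeR adjusted p = 0.0285). This call was lost without control replicate 1 (log2 fold change -0.31, edgeR adjusted p = 0.466) or CPEB4 siRNA replicate 1 (0.135), and when library totals were the only scaling (0.0581). The other collagen-binding subunits had few counts. Itga11 had a log2 fold change of -0.19 and Itga2 one of -0.18, with intervals from -0.60 to 0.22 and from -0.82 to 0.47. Itga10 had at most 1 count in a library.

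**Figure D2:**
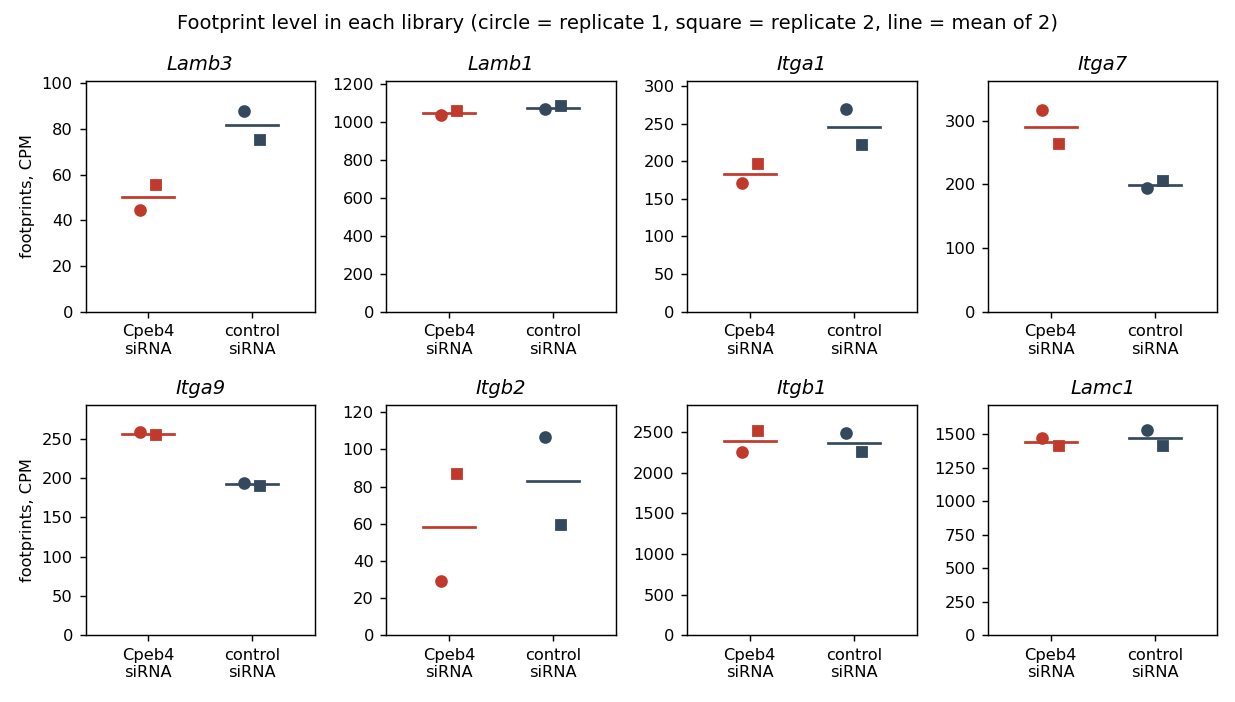
Footprint level in CPM (y axis, from 0) of 8 adhesion genes in each library, with CPEB4 siRNA left of control siRNA, a circle for replicate 1, a square for replicate 2 and a line for the mean of 2. Groups are apart for the called genes Lamb3, Itga1, Itga7 and Itga9, lie close but apart for the uncalled Lamb1, and overlap for Itgb2, Itgb1 and Lamc1.

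The shared beta partner of these 3 alpha subunits was not called. Itgb1, the beta-1 subunit, had 2253 and 2516 CPM after CPEB4 siRNA, against 2485 and 2252 CPM in controls. Its groups overlapped, and the log2 fold change of -0.02 had an interval from -0.23 to 0.19. Per 100 Itgb1 footprints in the same library, Itga7 had 14.1 and 10.5 after CPEB4 siRNA, against 7.82 and 9.14 in controls. Itga1 had 7.56 and 7.83 after CPEB4 siRNA, against 10.8 and 9.85 in controls. Itga9 had 11.5 and 10.1 after CPEB4 siRNA, against 7.80 and 8.45 in controls. For each alpha subunit the groups lay apart on this scale, in the direction of its own level. The 3 were called from these same counts, so these ratios are not a further check of the calls. Footprints of Itga7 per 100 of Itga1 averaged 160.3 ± 37.0 after CPEB4 siRNA and 82.5 ± 14.5 in controls (SD, n = 2 each).

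**Figure D3:**
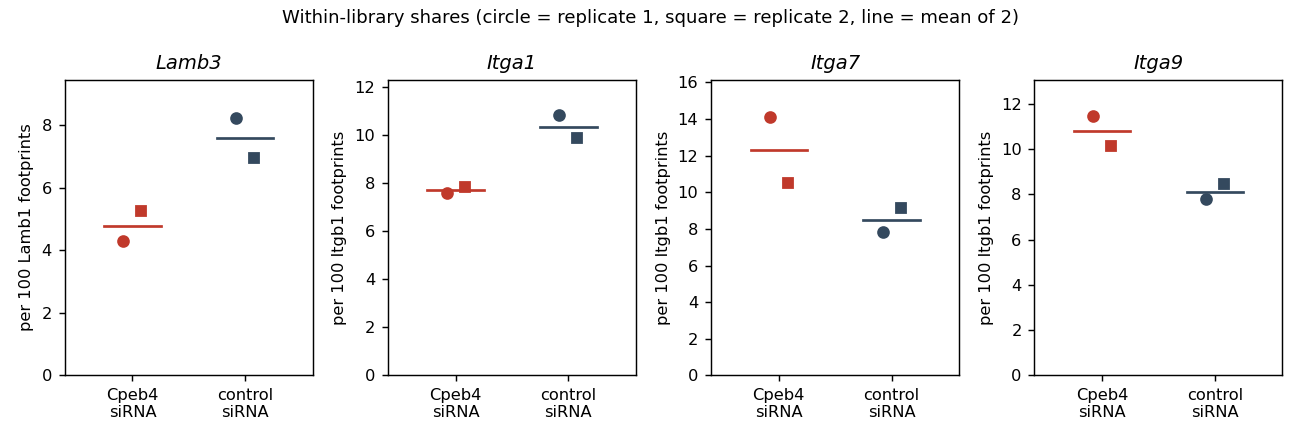
Lamb3 per 100 Lamb1 footprints, and Itga1, Itga7 and Itga9 per 100 Itgb1 footprints (y axes, from 0, not corrected for length), with CPEB4 siRNA left of control siRNA, a circle for replicate 1, a square for replicate 2 and a line for the mean of 2. The groups are apart in each panel, with Lamb3 at 4.29 and 5.27 after CPEB4 siRNA and 8.25 and 6.94 in controls. The genes shown were called from these same counts.

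The other laminin receptors had positive log2 fold changes that did not pass. Itga6 had 106 and 122 CPM after CPEB4 siRNA, against 93.8 and 92.0 CPM in controls, and its log2 fold change of 0.27 had an interval from 0.03 to 0.51 (edgeR adjusted p = 0.241). Itga3 was at 0.14 on the log2 scale (edgeR adjusted p = 0.568). Dag1, which encodes dystroglycan, had 811 and 839 CPM after CPEB4 siRNA, against 752 and 778 CPM in controls. Its groups did not overlap, but the log2 fold change of 0.08 had an interval from -0.12 to 0.28 and did not pass (edgeR adjusted p = 0.762). Itgb4, which pairs with Itga6 in epithelia, had only 16 to 33 counts in a library.

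Receptors for fibronectin and other matrix proteins with the RGD motif had no call. Itga5, the fibronectin receptor subunit, had 299 and 313 CPM after CPEB4 siRNA, against 304 and 310.4 CPM in controls, with an interval from -0.24 to 0.17 on the log2 scale. Itgav had a log2 fold change of 0.12, Itgb3 one of -0.08 and Itga8 one of -0.17, all with intervals that include 0. Itgb8, a partner of Itgav, had 19.6 and 25.7 CPM after CPEB4 siRNA, against 30.2 and 29.8 CPM in controls. Its interval, from -0.79 to -0.07, lay below 0, but the adjusted p in edgeR was 0.215. Itga4, a subunit of leukocyte receptors for fibronectin and VCAM-1, had overlapping groups and a log2 fold change of -0.09. Itga2b, Itgb6 and Itgb7 had at most 13 counts in a library and were not tested.

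Itgb2, the beta subunit of leukocyte integrins, spread more between replicates than any other tested adhesion gene. It had 29.5 and 86.8 CPM after CPEB4 siRNA, against 107 and 59.7 CPM in controls. The groups overlapped, and its log2 fold change of -0.56 ± 0.28 (SE, n = 2 per group) did not pass (edgeR adjusted p = 0.33). With single libraries left out it ranged from -1.55 to -0.01, passing without CPEB4 siRNA replicate 2 (edgeR adjusted p = 0.00443) and without control replicate 2 (0.000862). Itgad, an alpha subunit that pairs with it, had 21.7 and 53.3 CPM after CPEB4 siRNA and 62.4 and 44.2 CPM in controls. Its log2 fold change of -0.54 did not pass (edgeR adjusted p = 0.256), and with single libraries left out it ranged from -1.34 to -0.06. It passed without CPEB4 siRNA replicate 2 (edgeR adjusted p = 0.003), without control replicate 2 (0.0155) and with no low-count filter (0.00832). The sum over 12 leukocyte markers was 714 and 827 CPM after CPEB4 siRNA, against 943 and 675 CPM in controls, so control replicate 1 was highest on all these measures. The part of leukocytes in the Itgb2 values was not tested.

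**Figure D4:**
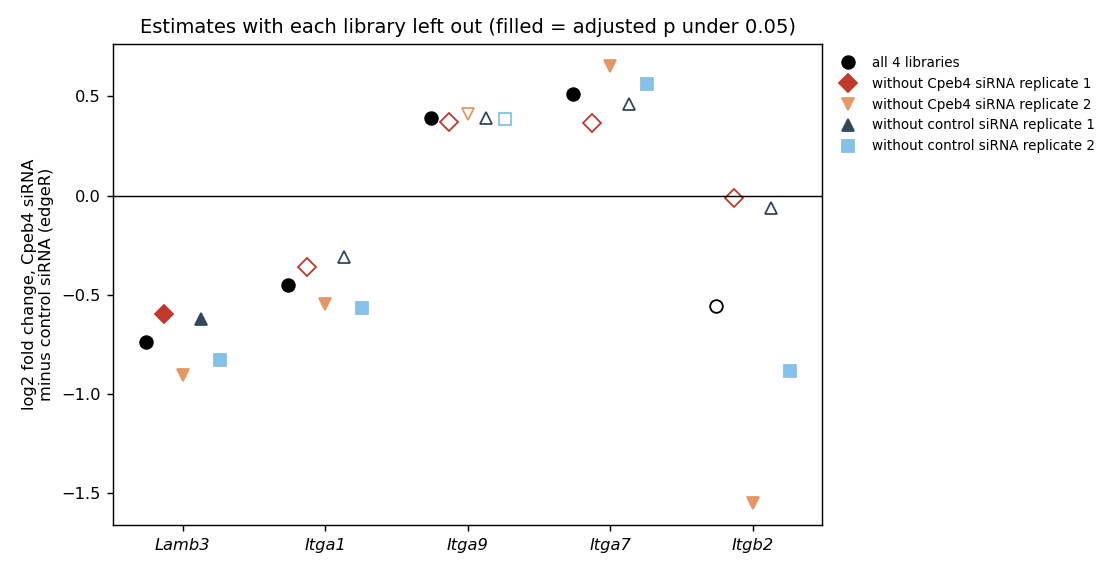
Log2 fold change (CPEB4 siRNA minus control siRNA, y axis) of 5 adhesion genes in edgeR with all 4 libraries and with each library left out (symbols), filled where the adjusted p was under 0.05. Lamb3 stays filled throughout, Itga9 is filled with all libraries alone, and Itgb2 runs from -1.55 to -0.01.

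None of the 9 intracellular adaptors was called in edgeR or DESeq2, the edgeR intervals lay within 1.5-fold for all 9, and 1 had an unadjusted p under 0.05. That gene was Parva, the actin-binding alpha-parvin of the complex with integrin-linked kinase. It had 283 and 298 CPM after CPEB4 siRNA, against 234 and 237 CPM in controls, and its log2 fold change of 0.28 had an interval from 0.07 to 0.49 (edgeR adjusted p = 0.159). In the same complex, Ilk had 392.3 and 403 CPM after CPEB4 siRNA and 443 and 387 CPM in controls, and the LIM protein gene Lims1 had 118 and 112 CPM after CPEB4 siRNA and 106 and 102 CPM in controls. Tln1, the talin that activates integrins in most cells, had 1385 and 1484 CPM after CPEB4 siRNA, against 1372 and 1391 CPM in controls. Its interval from -0.18 to 0.23 on the log2 scale has an upper end of 1.17-fold. Tln2, the second talin, was at -0.16 on the log2 scale (edgeR adjusted p = 0.547). Vcl (vinculin, which links talin to actin) and Fermt2 (kindlin-2) had log2 fold changes of 0.04 and 0.14. Pxn (paxillin) and Ptk2 (focal adhesion kinase) had -0.09 and 0.19, with edgeR adjusted p of 0.797 and 0.508.

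The 3 integrin-binding proteins were not called in edgeR, and 1 had an unadjusted edgeR p under 0.05. DESeq2 called none of them either, but gave no adjusted p for Itgb3bp. Itgb1bp2 encodes melusin, a muscle protein that binds the beta-1 tail. It had 157 and 152 CPM after CPEB4 siRNA, against 166 and 206 CPM in controls, with a log2 fold change of -0.29 and an interval from -0.53 to -0.05 (edgeR adjusted p = 0.209). The value was -0.45 without control replicate 1 and -0.12 without control replicate 2, and neither passed (edgeR adjusted p = 0.129 and 0.85). Itgb1bp1 had a log2 fold change of 0.05 and Itgb3bp, which encodes a centromere protein, one of -0.21.

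The medians of receptors and ligands lay close to that of all genes. The median log2 fold change was -0.04 over 17 tested receptors, -0.01 over 11 tested ligands and 0.04 over 9 adaptors, beside -0.0031 over all genes tested. Among receptors 2 rose and 1 fell (17.6% of those tested), and among ligands 0 rose and 1 fell (9.09%). The background was 3.41% of all genes tested, 1.54% being higher and 1.87% lower. Summed receptor footprints were 4967 and 5383 CPM after CPEB4 siRNA, against 5128 and 4827 CPM in controls. Summed ligand footprints were 6170 and 6027 CPM after CPEB4 siRNA, against 6099 and 6140 CPM in controls. Both sums overlapped between groups. The adaptor sum was 4505 and 4619 CPM after CPEB4 siRNA, against 4331 and 4345 CPM in controls, a mean ratio of 1.05 with groups apart. All these sums use library totals, with which the median log2 fold change of all genes was 0.0264 rather than -0.0031. The difference between receptors and ligands was not tested.

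Related genes outside the group were counted beside the 3.41% of all genes called. Of 7 tested chains of basement membrane collagens, 1 rose (14.3%), and their median log2 fold change was -0.10. The riser was the collagen IV chain Col4a4, with 331 and 389 CPM after CPEB4 siRNA against 256 and 261 CPM in controls (log2 fold change 0.45 ± 0.10, edgeR adjusted p = 0.0168). This call held in edgeR only without CPEB4 siRNA replicate 1 among the 4 fits that leave out a library (adjusted p up to 0.171). Col4a1, a chain of the common collagen IV trimer, had 1524 and 1620 CPM after CPEB4 siRNA and 1835 and 1900 CPM in controls and did not pass (edgeR adjusted p = 0.134).

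Of 29 further adaptors tested, 2 rose (6.9%) and none fell, with a median of 0.01. Lims2, a close relative of Lims1 that joins the same kinase complex, had 601 and 506 CPM after CPEB4 siRNA, against 377 and 376 CPM in controls (log2 fold change 0.53 ± 0.11, edgeR adjusted p = 0.00565, and 0.0567 without CPEB4 siRNA replicate 1). Crk, a signalling adaptor that binds paxillin, had 77.3 and 82.1 CPM after CPEB4 siRNA, against 55.4 and 56.6 CPM in controls (log2 fold change 0.48 ± 0.12, edgeR adjusted p = 0.0281). DESeq2 did not call it (adjusted p = 0.13), and the edgeR call held only without CPEB4 siRNA replicate 1, with adjusted p up to 0.238 without another library.

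Of 12 tested enzymes that glycosylate dystroglycan none was called in edgeR or DESeq2 and none had an unadjusted p under 0.05, with a median of -0.11. Of 4 tested genes with lettered integrin names, none was called in edgeR or DESeq2, and the median was -0.43. An unadjusted edgeR p under 0.05 was reached by 2, Itgad and Itgbl1. Log2 fold changes were negative for 3 and positive for 1, Itgal. Itgal had 37.0 and 38.6 CPM after CPEB4 siRNA, against 35.8 and 27.6 CPM in controls (log2 fold change 0.20, edgeR adjusted p = 0.566).

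Markers of other cells were counted beside these genes. Of 11 tested fibroblast markers 1 fell (Col1a1, log2 fold change -0.55 ± 0.11, edgeR adjusted p = 0.00339), 9 were negative and the median was -0.25. The 1 call was 9.09% of the 11, beside 3.41% of all genes tested. An unadjusted edgeR p under 0.05 was reached by 4 of the 11, beside a background of 16.1%. Groups did not overlap for 4 (36.4%), all of them lower, beside 46.0% of all genes tested. The fibroblast sum was 9819 and 9286 CPM after CPEB4 siRNA, against 13200 and 12160 CPM in controls. Most of that difference lay in Col1a1, with 6072 and 5374 CPM after CPEB4 siRNA against 8586 and 7867 CPM in controls. Without it the sum was 3748 and 3911 CPM after CPEB4 siRNA, against 4617 and 4297 CPM in controls, and the groups still did not overlap. Col3a1 made up most of that remainder and was not called (edgeR adjusted p = 0.186). It had 2899 and 2847 CPM after CPEB4 siRNA, against 3400 and 3304 CPM in controls. Postn, the next largest, had 571.9 and 696.5 CPM after CPEB4 siRNA and 825.7 and 654.5 CPM in controls, so its groups overlapped. Col1a2 is listed at 0 in all libraries. Leaving out control replicate 1 or CPEB4 siRNA replicate 2 left Col1a1 uncalled (edgeR adjusted p = 0.0548 and 0.0942). No gene was called in edgeR or DESeq2 among 10 endothelial (median -0.04), 12 leukocyte (-0.01), 9 smooth muscle and pericyte (0.02) and 11 cardiomyocyte markers (-0.10), where 0, 3, 0 and 1 had an unadjusted edgeR p under 0.05. The part of fibroblasts in the Itga1 fall was not tested.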

How the data were processed

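Ribosome footprints were recovered with RNase I from polysomes separated on sucrose, per the labels' protocols. The authors deposited raw counts per Ensembl gene, with no normalisation. Per the submitters' processing notes, Bowtie2, STAR 2.7, HTSeq 0.12 and the assembly Rnor_6.0 were used, with no role given to each. Strandedness of the counting was not stated, and overlapping or antisense genes are uncertain. The deposited files are marked as unique reads of 29 to 34 nt, but 29 to 33 nt in CPEB4 siRNA replicate 2. The 5 HTSeq summary rows were left out. Reads without a feature were 4.42% to 4.63%. With no matched RNA used here, values are footprint abundances, and near-identical paralogues are uncertain.

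Counts were tested with edgeR 4.0.16 in R 4.3.3 (TMM, filterByExpr with a minimum count of 10, group as the only term, glmQLFTest, two-sided), with Benjamini-Hochberg adjustment over 11335 genes and a threshold of 0.05. SE was derived from F, and 95% intervals use the fit's degrees of freedom. CPM uses library totals, and fold changes use TMM. The biological coefficient of variation was 8.77%. Alternatives were library totals, RLE factors, DESeq2 1.42.0, testing without a count filter, a minimum of 30 counts in 2 libraries, each library left out and the replicate number as a block. Where that leaves a group with 1 library, its variation is taken from the other group. The same-numbered libraries are not stated to share anything beyond the number. DESeq2 gave no adjusted p for 4615 of the 11335 genes, among them Itga2, Itga11, Itgb4, Lama1 and Itgb3bp. A gene without one could not be called by DESeq2. Of the 46 genes matched by symbol, 1 is not reported here, and counts and sums leave it out. Every other one could be named, and from related lists the called genes or, with none called, the gene of smallest p. Col4a1, Wt1, Krt19, Krt8, Tbx18, Upk1b, Col1a2, Col3a1, Postn, Itgbl1 and Itgal were named after their values were seen. Members, roles and lists were chosen with earlier results of these data known.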

Additional observations from a re-analysis of the deposited data

How the results depend on the processing

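Across all genes, 386 were called, against 192 in DESeq2, 606 with no low-count filter and 212 to 324 with a library left out (212 without control replicate 1). Among the adhesion genes 4 were called, 2 higher and 2 lower. With a library left out 1 to 4 were called, 0 to 1 higher and 1 to 3 lower, with 1 called without control replicate 1 or CPEB4 siRNA replicate 1, and Lamb3 was called in every alternative run. DESeq2, which gave no adjusted p for 4615 of the 11335 genes, called 3 adhesion genes (1 higher), without Itga9. The replicate number as a block gave 400 genes overall and 3 adhesion genes (1 higher), again without Itga9. Same-numbered libraries did not deviate together (r = -0.11 across 11335 genes, which are not independent). A crossed block, chosen after seeing the data, gave 479 genes and 5 adhesion genes. Median log2 fold changes with a library left out ran from -0.111 to -0.0108 for receptors, -0.0634 to 0.0597 for ligands and 0.00545 to 0.0674 for adaptors. Library totals as the only scaling left 1 lower, without Itga1, and moved the adaptor median to 0.067, where the median of all genes was 0.0264. The cause of these shifts was not tested. Log2 fold changes of some uncalled genes changed sign. With library totals Itgb1 was 0.00929 and Agrn 0.0185. With a library left out, Itgb1 ran from -0.0882 to 0.0474, Itgb3 from -0.155 to 0.0176, Itgb4 from -0.305 to 0.351, Itga4 from -0.244 to 0.0469, Lamb2 from -0.13 to 0.163, Agrn from -0.0888 to 0.0597, Ilk from -0.174 to 0.000562, Vcl from -0.00816 to 0.0848, Tln1 from -0.0118 to 0.0636 and Itgb1bp1 from -0.041 to 0.152. Itgb2 was called with no low-count filter (edgeR adjusted p = 0.00137). Depth limits the genes with under 50 counts in every library, such as Itgb4, Itga2, Lama1 and Itgb3bp, whose intervals span more than 1.5-fold.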
